A study of Saccharomyces cerevisiae with 8 samples.

Results

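The interaction of L-carnitine with hydrogen peroxide was measured in budding yeast, Saccharomyces cerevisiae BY4742, on 8 Affymetrix expression arrays. It is the carnitine effect in peroxide-exposed cells (carnitine with peroxide minus peroxide) minus the carnitine effect in unexposed cells (carnitine minus control), taken on group means of log2 signal. Subtracting the peroxide effect without carnitine from the peroxide effect with carnitine gives the same number, so a positive interaction means that a gene stood higher in carnitine with peroxide than the 2 treatments taken singly would add up to. All 8 of the 8 arrays of the series entered, and 5498 of the 10928 probe sets carried exactly 1 S. cerevisiae gene. They covered 5449 genes, of which 5324 were tested and 125 lay at or below the floor, a signal of 4.145 set by probe sets for fission yeast on the same arrays. The question put to the data is whether carnitine acts on the transcriptome differently when cells meet peroxide.

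The arrays formed 4 groups of 2, and by their titles each is a biological replicate: carnitine with peroxide, peroxide, carnitine, and untreated control. All cultures were the haploid laboratory strain BY4742, recorded as his3 leu2 lys2 ura3, and were harvested at mid-log growth in synthetic complete medium with dextrose. Peroxide was 0.4 mM for 30 min, and the design text gives carnitine as 100 mg/L whereas the treatment protocol gives 1000 mg/L. There was 1 strain, 1 peroxide dose and 1 time, so the interaction holds for this combination only. Signals are linear, in the arbitrary units of the deposited table, changes are log2 differences ± SE, and a gene was called where its limma adjusted p was below 0.05.

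Carnitine is a small charged amine onto which acetyl and acyl groups are loaded for passage across organelle membranes, through carnitine acetyltransferases and a mitochondrial carrier. Yeast makes none and takes it up from the medium. Hydrogen peroxide oxidises thiols and iron-sulfur centres, and yeast answers through Yap1, which switches on thioredoxin and glutathione systems, and through Msn2 and Msn4, which switch on trehalose, glycogen and other general stress genes, while growth genes are switched off. The oxidative branch of the pentose phosphate pathway supplies NADPH to the antioxidant enzymes.

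Array medians over tested genes lay between 3044 and 3198, and how the deposited signals were scaled is not stated. Between 5300 and 5313 tested genes were above the floor on each array. This count follows largely from the filter, which kept genes with a mean above the floor. The absolute log2 difference between replicates had a median of 0.0865 to 0.0984 by group. The median SE of an interaction was 0.13, against 0.09 for a single effect, because 4 group means enter it. LEU2, LYS2 and URA3 read 3.87 to 4.09, at the floor, and all 3 are recorded as mutant. HIS3, recorded as mutant too, read 10505 to 17056, and whether its probe set lies in the altered part of the gene was not tested. The genotype field reads MATa although the α pheromone gene MF(ALPHA)1 read 46478 to 51980 and the a-cell receptor gene STE2 read 84.3 to 241. The poly-A spikes, bacterial transcripts added to the RNA, averaged 6.13 and 6.295 (log2) in carnitine with peroxide and 6.91 and 7.001 in peroxide, against 6.29 and 6.28 in carnitine and 6.18 and 6.55 in control. The hybridisation spikes averaged 10.57 and 10.29 in carnitine with peroxide and 10.59 and 10.40 in peroxide. They averaged 10.77 and 10.73 in carnitine and 11.03 and 10.88 in control. Changes here are relative to the overall array signal. Scaling to the poly-A spikes moved the median interaction of all genes to 0.67, against 0.01 as deposited, and scaling to the hybridisation spikes moved it to -0.14. The part of the spikes in the results was not tested.

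Of the 5324 genes, 683 had an interaction (12.8%), 411 positive (7.72%) and 272 negative (5.11%). Positive calls had a median of 0.60 and negative calls of -0.64, and 88 and 56 of them were at least 2-fold. At an unadjusted p below 0.05 there were 1708 genes. Positive calls made up 60.2% of the total, but 98.9% under poly-A scaling (3119 and 35) and 32.4% under hybridisation scaling (140 and 292). Of the 683 genes, 542 kept their sign under poly-A scaling and all 683 under hybridisation scaling.

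The calls lay mainly on the peroxide side of the design. Carnitine during peroxide changed 1892 genes (35.5%), against 80 genes (1.5%) for carnitine without peroxide. Among the 411 positive genes, carnitine raised 351 during peroxide with no called change in unexposed cells, 21 fell only in unexposed cells, 8 rose during peroxide and fell without it, and 28 passed in neither effect. Among the 272 negative genes, 248 fell during peroxide with no called change in unexposed cells, 8 rose only in unexposed cells and 14 passed in neither. The median carnitine effect of the positive genes was 0.50 during peroxide and -0.07 without it, and that of the negative genes was -0.56 and 0.05. These single effects use the same arrays as the interaction, so they describe where it lies and are no separate evidence of it. Across all tested genes the carnitine effects with and without peroxide, which share no array, had a Pearson r of 0.21.

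**Figure D1:**
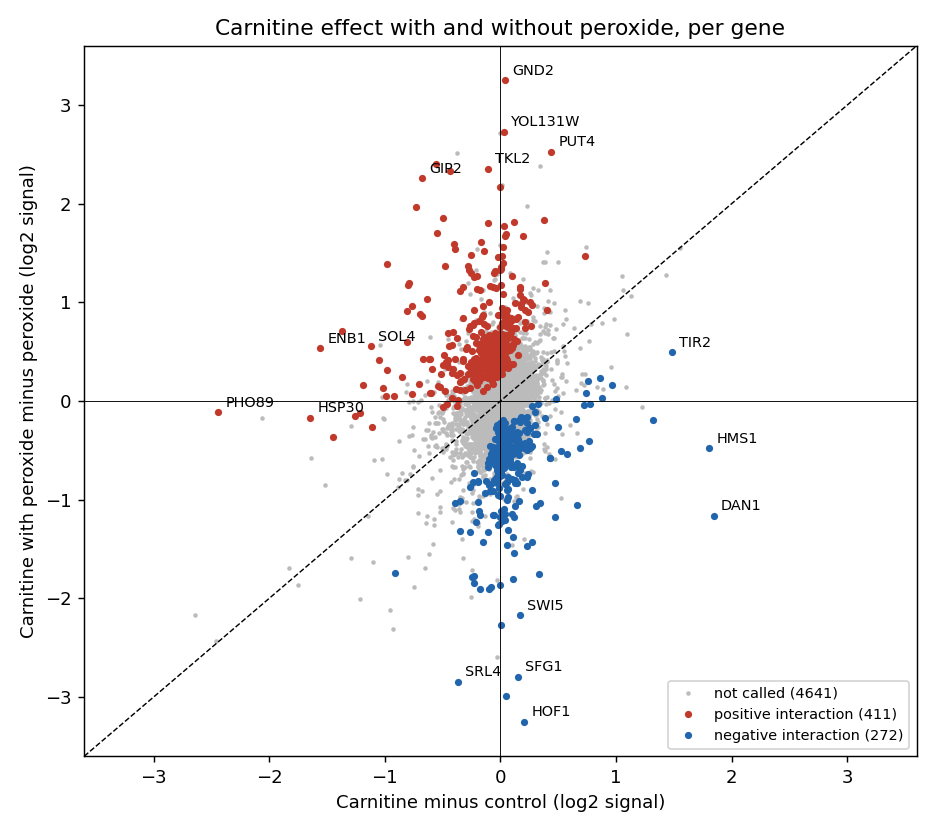
Each point is a tested gene, with the carnitine effect in unexposed cells on the x axis and during peroxide on the y axis, both in log2 signal. Points on the dashed line have no interaction, and the 411 positive (red) and 272 negative (blue) calls lie above and below it, most of them near an x value of 0.

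Read as a change in the peroxide response, the interaction sharpened some responses and blunted others. Peroxide with carnitine changed 3987 genes (74.9%) and peroxide without carnitine 3980 (74.8%), and the 2 peroxide effects, which share no array, had r = 0.931 across genes. Of the positive genes, 182 rose with peroxide in both settings and 85 fell in both. A further 75 rose only with carnitine, 56 fell only without it, and 13 rose with carnitine and fell without it. Of the negative genes, 98 fell in both, 69 rose in both, 44 fell only with carnitine, 47 rose only without it, and 14 fell with carnitine and rose without it.

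Leaving out 1 array leaves 1 in its group, so an influential array and lost precision cannot be told apart here. The number of calls moved with each array left out. It was 18 without control replicate 1, 178 without control replicate 2, 26 and 17 without carnitine replicates 1 and 2, 169 without peroxide replicate 2, and 22 and 208 without replicates 1 and 2 of carnitine with peroxide. Without peroxide replicate 1 it was 969. All 683 genes kept their sign in each of these 8 fits, and 9 were called in all of them: ATO2, CRC1, GND2, HOF1, HXT11, PGM2, PNS1, SHC1 and SPS4. In 596 of the 683 genes (87.3%, against 69.3% of all tested genes), peroxide replicate 2 lay farther than replicate 1 from the mean of carnitine with peroxide; the part of this in the calls was not tested. The counts of the gene lists moved with the processing too. Of the 35 lists with a call, 16 moved by over 1.5 times under hybridisation scaling, 30 under poly-A scaling, 16 with no trend, 19 with no filter and 13 with the 40th percentile filter. The direction of most calls turned in 13 lists under poly-A scaling and in 5 under hybridisation scaling. Under hybridisation scaling 5 lists had 0 calls by limma: glyoxylate cycle, lysine, proteasome, sterol and mitochondrial ribosomal protein genes, with 2, 5, 2, 1 and 2 members at an unadjusted p below 0.05.

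GND2 (YGR256W), for the minor isozyme of 6-phosphogluconate dehydrogenase, an NADPH-forming step of the pentose phosphate pathway, had the largest positive interaction among the named genes. It read 3371 and 2486 in carnitine with peroxide, 322 and 286 in peroxide, 10.5 and 13.6 in carnitine and 13.8 and 9.82 in control. Carnitine alone left it near the control signal, peroxide lifted it, and carnitine with peroxide lifted it well beyond both peroxide arrays. The interaction was 3.21 ± 0.32 (adjusted p = 0.00891), which is 9.26-fold on a linear scale, and the peroxide effect was 7.92 ± 0.22 with carnitine and 4.71 ± 0.22 without.

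TKL2 (YBR117C), for the minor transketolase, followed the same course. Its signals were 1995 and 2442 in carnitine with peroxide, 466 and 398 in peroxide, 18.5 and 31.9 in carnitine and 35.8 and 19.2 in control, and its interaction was 2.47 ± 0.48 (adjusted p = 0.0265). SOL4, for a 6-phosphogluconolactonase, read 11959 and 12581 in carnitine with peroxide, 9252 and 7551 in peroxide, 208 and 191 in carnitine and 505 and 369 in control. It differed from GND2 in that carnitine lowered it in unexposed cells, by 1.12 ± 0.16, and raised it during peroxide by 0.55 ± 0.16, for an interaction of 1.67 ± 0.23 (adjusted p = 0.0186). PGM2, for the main phosphoglucomutase, which links glycogen and trehalose to glycolysis, had 1.54 ± 0.15 (adjusted p = 0.00891), and its 2 carnitine effects also had opposite signs.

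These 4 genes were the only called members of the 14 tested pentose phosphate genes, and 0 were negative. The median of the list was 0.16, against 0.01 over all tested genes. Their isozyme counterparts did not pass, with 0.11 for GND1, 0.0027 for TKL1, 0.18 for SOL3 and -0.016 for PGM1. ZWF1, for glucose-6-phosphate dehydrogenase at the head of the pathway, had 0.30 ± 0.13 (adjusted p = 0.175), and the transaldolase genes TAL1 and NQM1 had 0.095 and -0.45. Leaving out 1 array gave between 2 and 5 called members.

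**Figure D2:**
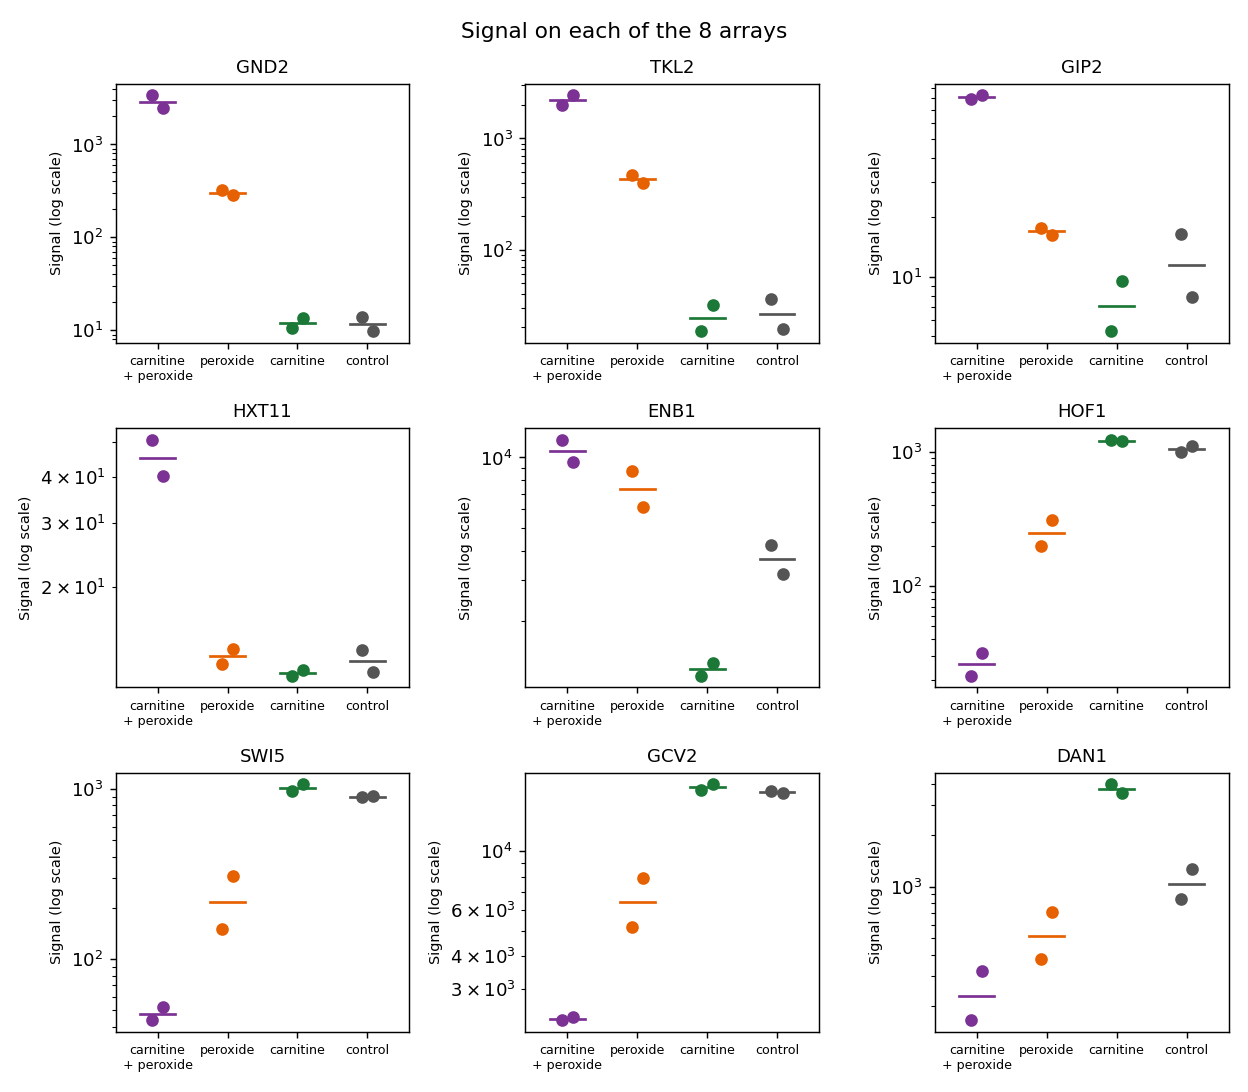
Signal on each array (points, log axis, with the scale differing between panels) for 9 genes in carnitine with peroxide, peroxide, carnitine and control, where bars mark the geometric mean of 2 arrays. GND2, TKL2, GIP2 and HXT11 stand highest in carnitine with peroxide, HOF1, SWI5, GCV2 and DAN1 stand lowest there, and the carnitine arrays of ENB1 lie below its control arrays.

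Trehalose and glycogen genes, which build and break the storage sugars that accumulate under stress, had 10 of 20 members positive and 0 negative, with a median of 0.84 (0.69 under hybridisation scaling). The median peroxide effect of the list was 1.56 with carnitine and 0.92 without it, and the median carnitine effect was 0.31 during peroxide and -0.33 in unexposed cells. By limma calls, carnitine raised 9 members and lowered 1 during peroxide, and it raised 0 and lowered 0 in unexposed cells. Over all tested genes 18.8% rose and 16.7% fell with carnitine during peroxide, and 1.5% were called in unexposed cells. Between 0 and 10 members were called when 1 array was left out.

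The control of glycogen synthase carried the largest values of the list. GIP2, for a partner of the Glc7 phosphatase thought to act on glycogen synthase, read 79.5 and 82.9 in carnitine with peroxide, 17.7 and 16.3 in peroxide, 5.300 and 9.54 in carnitine and 16.4 and 7.91 in control, with an interaction of 2.94 ± 0.51 (adjusted p = 0.0228). GSY1, for a glycogen synthase, read 989.9 and 797 in carnitine with peroxide, 475 and 326 in peroxide, 3489.9 and 2944 in carnitine and 6536 and 4737 in control. Peroxide lowered GSY1 in both settings, by 1.85 ± 0.23 with carnitine and by 3.82 ± 0.23 without it, so its positive interaction of 1.97 ± 0.32 (adjusted p = 0.0203) is a smaller fall. GAC1, for another Glc7 partner, read 10.97 and 11.8 in carnitine with peroxide, 4.33 and 3.56 in peroxide, 4.34 and 4.19 in carnitine and 7.76 and 4.05 in control, at the floor in peroxide, so its size is not given.

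Enzymes that degrade glycogen were positive as well. GPH1, for glycogen phosphorylase, read 13912 and 13275 in carnitine with peroxide, 5804 and 5272 in peroxide, 3661 and 2953 in carnitine and 4113 and 2837 in control, and the signals of carnitine with peroxide lay above all others. Its interaction was 1.35 ± 0.24, that of GDB1, for the debranching enzyme, 1.17 ± 0.26, and that of PIG1, a further Glc7 partner, 1.37 ± 0.25. GLG1, for glycogenin, which primes the polymer, had 1.001 ± 0.26. For trehalose, TPS1, the synthase gene, had 0.75 ± 0.13, TSL1, for a regulatory subunit of the complex, 0.95 ± 0.22, and ATH1, for acid trehalase, 0.92 ± 0.16. GSY2, GLC3, TPS2 and TPS3 did not pass (0.62, 0.99, 0.54 and 0.30), nor did the neutral trehalase genes NTH1 and NTH2 (0.19 and -0.059).

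Hexose transport and glucose sensing had the largest share of calls of any list, 12 of 20 tested members positive and 0 negative, with a median of 0.78 (1.44 under poly-A and 0.64 under hybridisation scaling). Of the 27 genes of this list, 5 lay at or below the floor and 2 had no single-gene probe set. The median peroxide effect was -0.28 with carnitine and -0.62 without, and the carnitine effect had a median of 0.65 during peroxide and -0.05 in unexposed cells. Leaving out 1 array gave between 1 and 13 called members.

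HXT4, for a high-affinity glucose transporter, read 11313 and 13136 in carnitine with peroxide, 6316 and 3808 in peroxide, 25722 and 23351 in carnitine and 25731 and 24944 in control. Both peroxide arrays lay below both arrays of carnitine with peroxide, and the unexposed groups overlapped. Its interaction was 1.36 ± 0.29 (adjusted p = 0.0304). HXT2, of the same class, had 0.93 ± 0.12, and HXT7, whose probe set may also match another gene, had 1.22 ± 0.26. The low-affinity transporter genes HXT1 and HXT3 were positive with smaller values, 0.36 ± 0.075 and 0.32 ± 0.057.

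HXT11, of the same family, read 50.6 and 40.2 in carnitine with peroxide, 12.3 and 13.5 in peroxide, 11.4 and 11.8 in carnitine and 13.4 and 11.6 in control, with an interaction of 1.91 ± 0.19 (adjusted p = 0.00891). It is nearly identical to HXT9, which had 0.70 ± 0.16, so the pair may share signal. MTH1, for a protein that holds the HXT genes repressed when glucose is scarce, read 2291 and 2076 in carnitine with peroxide, 844 and 537 in peroxide, 7744 and 6267 in carnitine and 7441 and 6109.9 in control, with an interaction of 1.65 ± 0.30 (adjusted p = 0.0239). The sensor gene SNF3 (0.88 ± 0.18), the repressor gene MIG1 (0.87 ± 0.17) and the kinase genes HXK1 and GLK1 (0.92 ± 0.21 and 0.64 ± 0.092) were positive, whereas HXK2, the main hexokinase in glucose-grown cells, had 0.091 and did not pass. HXT5 had 2.03 ± 1.15 but an adjusted p of 0.263.

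Among the 15 largest positive values were MAL11 and MAL31, which belong to none of the lists. MAL11, for an α-glucoside permease, read 86.04 and 66.1 in carnitine with peroxide, 25.4 and 14.7 in peroxide, 154 and 126 in carnitine and 294 and 182 in control, and MAL31, for a maltose permease, read 694 and 644 in carnitine with peroxide, 274 and 154 in peroxide, 1042 and 1090.4 in carnitine and 1683 and 1435 in control. Peroxide lowered both, and less so with carnitine, for interactions of 2.70 ± 0.44 and 2.25 ± 0.34 (adjusted p = 0.0208 and 0.0197). MRK1, for a kinase of the GSK-3 family, had 2.35 ± 0.46 with the same course. YJR115W had 2.96 ± 0.72, its peroxide effect with carnitine, -0.89 ± 0.51, not passing while it fell with peroxide without carnitine. ATO2, of a family of acetate and ammonium transporters, read 420.2 and 465 in carnitine with peroxide, 178 and 159.8 in peroxide, 40.2 and 42.8 in carnitine and 69.8 and 96.2 in control, and its interaction was 2.37 ± 0.24 (adjusted p = 0.00891). PUT4, for the proline permease, read 47.8 and 31.4 in carnitine with peroxide, 8.37 and 5.395 in peroxide, 10.1 and 7.56 in carnitine and 7.27 and 5.71 in control, with an interaction of 2.09 ± 0.39. SPS100, for a spore wall protein, read 735 and 512 in carnitine with peroxide, 202 and 91.4 in peroxide, 4.15 and 4.14 in carnitine and 4.16 and 4.14 in control and had 2.18 ± 0.48; its unexposed signals stood within the range of fission yeast probe sets, which reached a mean of 4.95, so the size of its value depends on the floor. The same holds for YOL131W, at 2.70 ± 0.35. YBR284W had 2.77 ± 0.64 and YNL195C 2.08 ± 0.37.

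The iron regulon, genes for iron uptake and sparing under the activators Aft1 and Aft2, had 15 of 31 members positive and 0 negative, with a median of 0.69 (1.35 under poly-A and 0.55 under hybridisation scaling). The median carnitine effect of the list was 0.32 during peroxide and -0.21 in unexposed cells, where 5 members fell and 0 rose (1.03% of all tested genes fell there). The median peroxide effect was 1.38 with carnitine and 1.27 without. Between 0 and 20 members were called when 1 array was left out.

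ENB1, for a transporter of the siderophore enterobactin, had the largest value of the list. It read 11881 and 9557 in carnitine with peroxide, 8774 and 6142 in peroxide, 1174 and 1323 in carnitine and 4227 and 3191 in control, so the carnitine arrays were the lowest and the peroxide groups did not overlap. Carnitine lowered it by 1.56 ± 0.20 in unexposed cells, while its effect during peroxide was 0.54 ± 0.20 and did not pass (adjusted p = 0.0729). The interaction was 2.10 ± 0.28 (adjusted p = 0.0186).

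FRE1, for a surface ferric reductase, read 29416 and 28856 in carnitine with peroxide, 28659.8 and 24529 in peroxide, 448 and 399 in carnitine and 886 and 827 in control. The peroxide arrays lay just below those of carnitine with peroxide, the fall with carnitine in unexposed cells was 1.02 ± 0.095, and the interaction was 1.15 ± 0.13 (adjusted p = 0.0149). TIS11, for a protein that speeds decay of iron-related transcripts, had the same shape and 1.30 ± 0.18. FIT3, for a mannoprotein that retains siderophores in the wall, lay instead on the peroxide side: it read 14673 and 16496 in carnitine with peroxide, 8665 and 8652 in peroxide, 641 and 591 in carnitine and 847 and 698 in control, with 1.17 ± 0.16 (adjusted p = 0.0184).

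FET3 and FTR1, the oxidase and permease of the reductive uptake complex, had 0.87 ± 0.10 and 0.85 ± 0.21. The siderophore transporter genes ARN2 and SIT1 had 1.40 ± 0.28 and 1.01 ± 0.18, FRE3, for a siderophore reductase, 1.11 ± 0.26, CCC2, for the copper pump that loads the oxidase, 0.87 ± 0.18, and LSO1 1.48 ± 0.37. ATX1, for a copper chaperone, had 0.53 ± 0.099 and FTH1, for a vacuolar iron permease, 0.41 ± 0.097. The iron-sulfur scaffold genes ISU1 and ISU2 did not pass (-0.43 and -0.044), nor did HMX1, for haem oxygenase (0.30). AFT1 had 0.060 and did not pass, whereas AFT2 was negative at -0.73 ± 0.14.

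**Figure D3:**
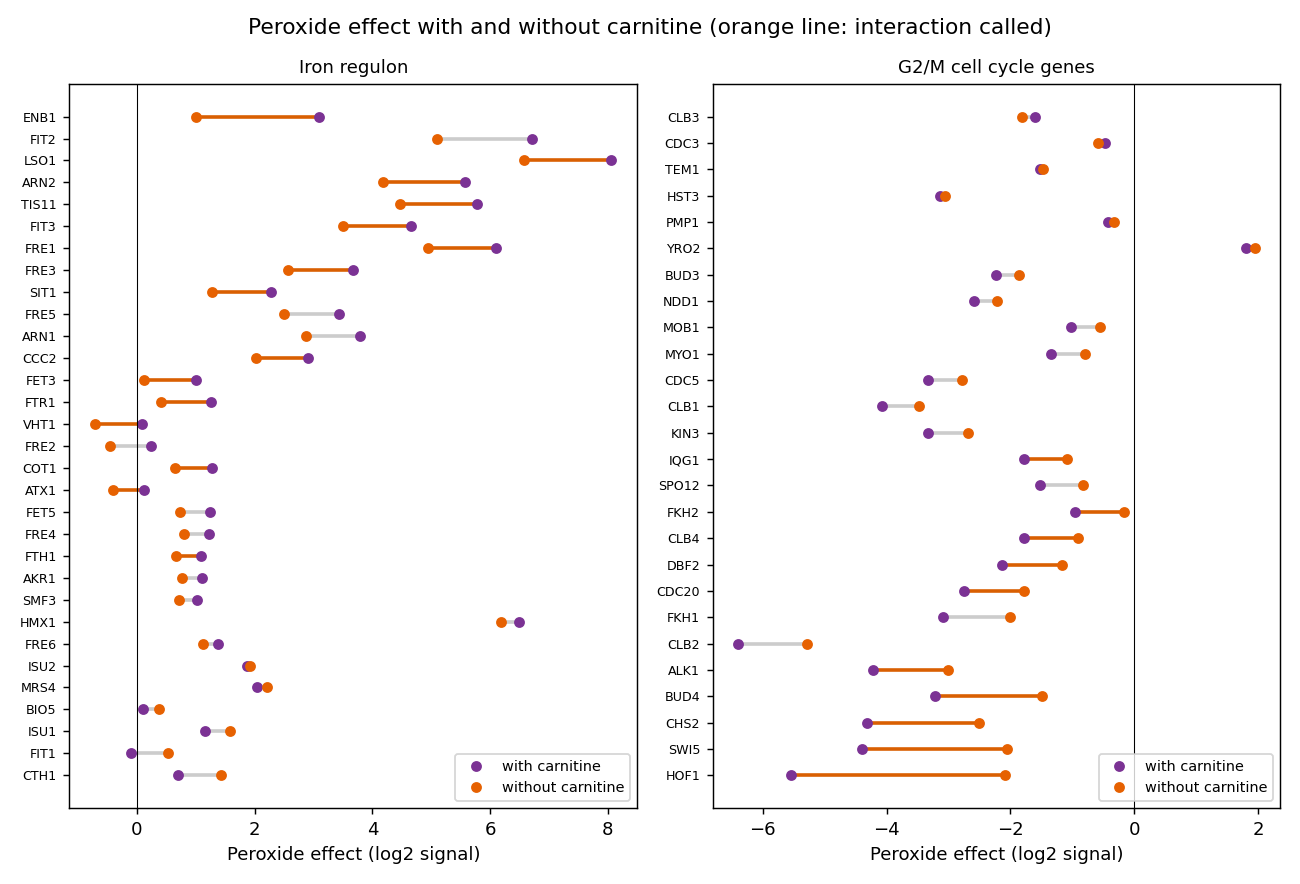
Peroxide effect in log2 signal with carnitine (purple) and without carnitine (orange) for each tested member of the iron regulon (left panel) and of the G2/M genes (right panel), ordered by the interaction. Lines are orange where the interaction was called: 15 iron genes with a more positive peroxide effect with carnitine, and 10 G2/M genes with a more negative one.

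Among further stress lists the share of calls was lower. Proteasome genes had 11 of 36 members positive and 0 negative, with a median of 0.27 (0.93 under poly-A and 0.13 under hybridisation scaling). The calls numbered 34 under poly-A scaling, 0 under hybridisation scaling by limma, with 2 at an unadjusted p below 0.05, and 3 with no trend. PUP1, for a catalytic core subunit, had the largest of them, 0.57 ± 0.088, and UMP1, for an assembly factor, had 0.42 ± 0.090. RPN4, for the activator of these genes, had the opposite sign, -0.40 ± 0.12, and did not pass (adjusted p = 0.0659). Leaving out 1 array gave between 0 and 19 called members.

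General stress genes had 7 of 39 members positive and 2 negative, with a median of 0.37. The positive ones included USV1, for a transcription factor (1.66 ± 0.35), PHM7 (1.65 ± 0.24), TMA10 (1.34 ± 0.34), TFS1, for an inhibitor of carboxypeptidase Y (1.16 ± 0.20), and MSC1 (1.10 ± 0.28). YGP1, for a secreted wall glycoprotein, and NCE103, for carbonic anhydrase, were negative at -0.66 ± 0.099 and -0.62 ± 0.13. MSN4 and MSN2 had 0.64 and -0.30 and did not pass, and MSN2 turned to 0.37 under poly-A scaling.

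Chaperone genes had 6 of 32 members positive and 2 negative, with a median of 0.10 that turned to -0.04 under hybridisation scaling. HSP30, for a membrane heat-shock protein, read 48063 and 49336 in carnitine with peroxide, 54840.3 and 54495 in peroxide, 1168 and 2041 in carnitine and 5434 and 4306 in control. Its arrays in carnitine with peroxide lay slightly below those in peroxide, and its interaction of 1.48 ± 0.33 (adjusted p = 0.0324) came with a fall by 1.65 ± 0.23 with carnitine in unexposed cells. HSP42, for a small heat-shock protein, had the same shape and 0.85 ± 0.16. BTN2, for a protein-sorting factor, and FES1, for an Hsp70 exchange factor, were negative at -1.06 ± 0.27 and -0.62 ± 0.10, the second of which turned to 0.04 under poly-A scaling.

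Antioxidant genes stood near the background, with 4 of 38 members positive, 2 negative and a median of 0.09, which turned to -0.06 under hybridisation scaling. The catalase gene CTA1 read 2994 and 3677 in carnitine with peroxide, 6105 and 7056 in peroxide, 59.96 and 49.8 in carnitine and 26.6 and 54.1 in control. Both arrays of carnitine with peroxide lay below both peroxide arrays, but the interaction of -1.51 ± 0.43 did not pass (adjusted p = 0.0597). CTT1, for the cytosolic catalase, read 7520.1 and 8164 in carnitine with peroxide, 13535 and 17568 in peroxide, 492 and 623 in carnitine and 755 and 334 in control, with an interaction of -1.12 ± 0.48 that did not pass (adjusted p = 0.158). SRX1, for sulfiredoxin, had -0.61 ± 0.23 (adjusted p = 0.115), which turned to 0.06 under poly-A scaling.

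TSA2, for a peroxiredoxin induced by peroxide, was called at -0.80 ± 0.19 (adjusted p = 0.037). Its signals were 49793 and 53226 in carnitine with peroxide, 49475 and 42515 in peroxide, 1299 and 1195 in carnitine and 559 and 731 in control, so the called value came with a rise with carnitine in unexposed cells, by 0.96 ± 0.13. GSH1, for the first enzyme of glutathione synthesis, was negative at -0.31 ± 0.071, which turned to 0.35 under poly-A scaling, and GSH2, for the second enzyme, was positive at 0.27 ± 0.070. GPX1, for a glutathione peroxidase, had 1.10 ± 0.19, GTT1, for a glutathione transferase, 0.75 ± 0.14, and MXR1, for a methionine sulfoxide reductase, 0.53 ± 0.13. The main thioredoxin, peroxiredoxin and superoxide dismutase genes did not pass: TRX2 had 0.092, TRR1 0.079, TSA1 0.057, SOD1 0.057, SOD2 0.14, GLR1 0.12 and GPX2 0.11. The regulator genes YAP1 and SKN7 had 0.090 and 0.078. Under hybridisation scaling these values, from TRX2 to SKN7, all turned below 0, the lowest being -0.09 for TSA1 and SOD1.

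Yap1-linked oxidoreductase and efflux genes had 3 of 21 members positive and 3 negative. OYE3, for an NADPH oxidoreductase, had 0.81 ± 0.18, GRE3, for an aldose reductase, 0.76 ± 0.089, and YCF1, for a vacuolar glutathione-conjugate pump, 0.36 ± 0.078. YLR460C, HBN1 and the efflux gene ATR1 were negative at -1.12 ± 0.24, -0.55 ± 0.14 and -0.59 ± 0.11, of which ATR1 turned to 0.07 under poly-A scaling.

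Genes of carnitine use had 1 positive and 1 negative call among 7 members. YAT2, for a cytosolic carnitine acetyltransferase, read 1412 and 1347 in carnitine with peroxide, 2557 and 2639.9 in peroxide, 645 and 792 in carnitine and 783 and 736 in control. Peroxide raised it less with carnitine, by 0.95 ± 0.12, than without, by 1.78 ± 0.12, and the interaction was -0.83 ± 0.17 (adjusted p = 0.0276). CRC1, for the mitochondrial carnitine carrier, read 11.2 and 11.6 in carnitine with peroxide, 4.72 and 4.21 in peroxide, 4.003 and 4.001 in carnitine and 4.07 and 3.88 in control, a positive call (adjusted p = 0.00891) whose carnitine and control arrays lay at the floor, so its size is not given.

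The other genes of this list did not pass. CAT2, for the acetyltransferase of mitochondria and peroxisomes, had 0.33 ± 0.20, AGP2, for the plasma membrane carnitine transporter, 0.12 ± 0.42, YAT1, which read 4.73 to 5.57 on all arrays, 0.12 ± 0.12, CIT2, for peroxisomal citrate synthase, -0.019 ± 0.16 and HNM1, for the choline transporter, -0.0070 ± 0.18. CIT2 and HNM1 turned to 0.64 and 0.65 under poly-A scaling, and AGP2 and YAT1 to -0.02 under hybridisation scaling. The cytochrome c genes CYC1 and CYC7 had -0.14 ± 0.10 and 1.05 ± 0.33 (adjusted p = 0.386 and 0.0776), CYC1 turning to 0.52 under poly-A scaling, and did not pass, whereas CYC3, for the enzyme that attaches haem to them, was positive at 0.78 ± 0.17 (adjusted p = 0.0323). Peroxisomal beta-oxidation and the respiratory chain had 0 called members of 13 and 34 by limma, with 1 and 7 at an unadjusted p below 0.05. In the tricarboxylic acid cycle 4 of 19 were negative, among them ACO1, for aconitase, an iron-sulfur enzyme, at -0.76 ± 0.15, and MAE1, for malic enzyme, at -1.28 ± 0.29, and 1, LSC2, for a succinyl-CoA ligase subunit, was positive at 0.57 ± 0.13.

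**Figure D4:**
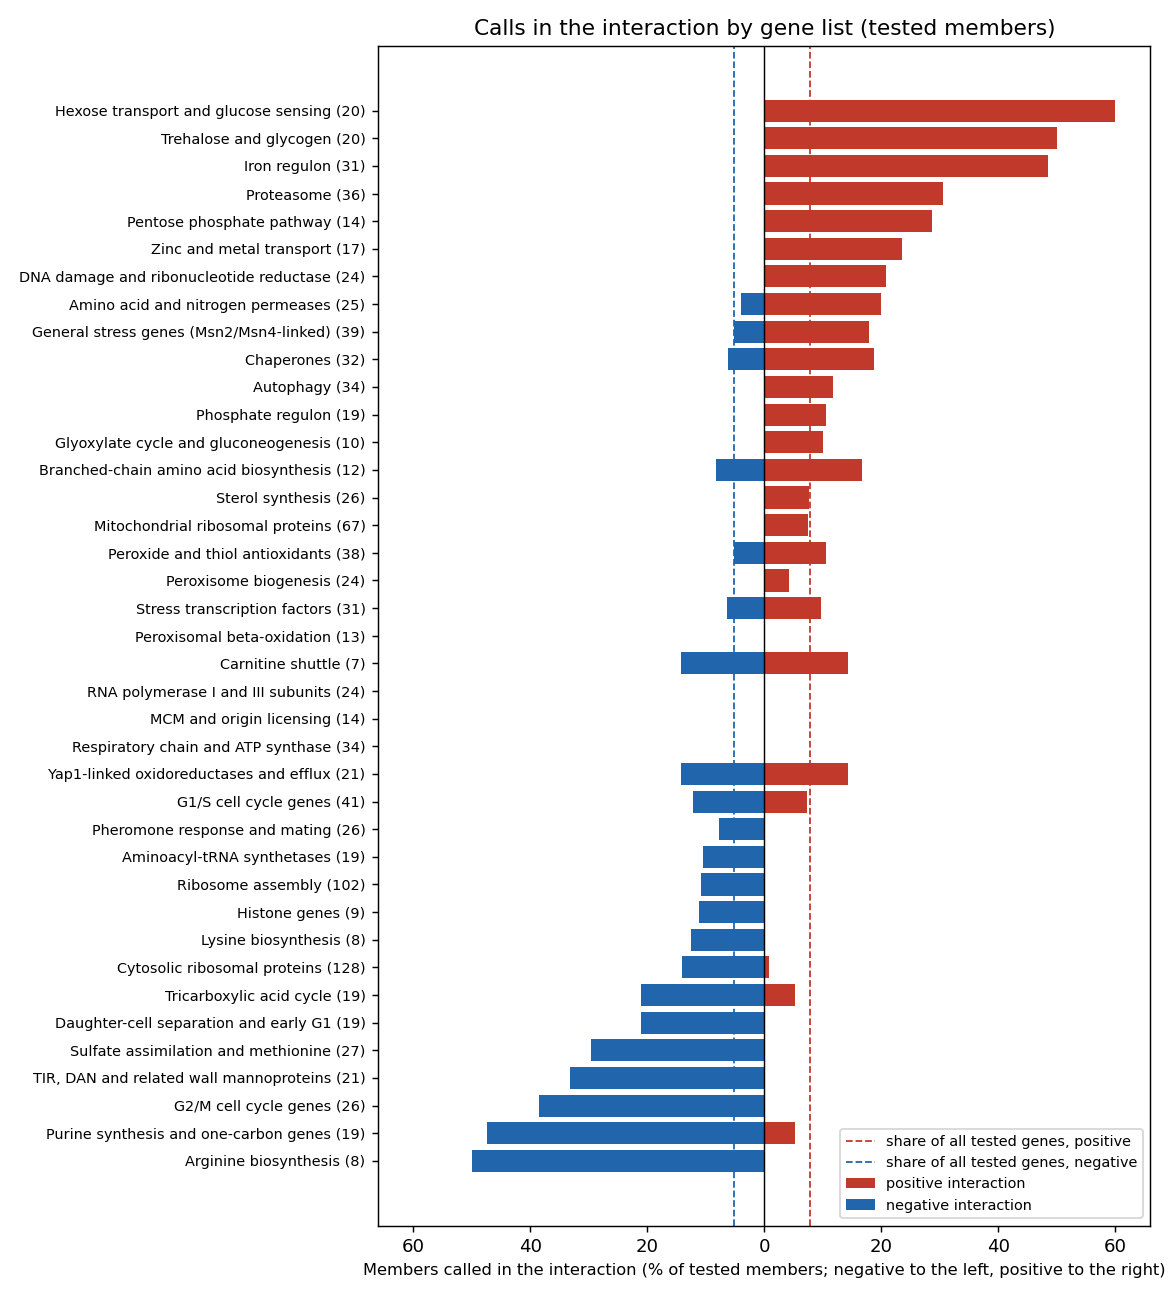
Percent of the tested members of each gene list (their number in brackets) with a positive (red, to the right) or negative (blue, to the left) interaction, with dashed lines at the shares of all tested genes, 7.72% and 5.11%. Hexose transport, with 12 of 20 positive, and arginine biosynthesis, with 4 of 8 negative, stand at the ends; the split between directions moves with the spike scaling given in the text.

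G2/M genes, which peak in late G2 and mitosis, had 10 of 26 members negative (38.5%, against 5.11% of all tested genes) and 0 positive. Their median of -0.66 came to -0.00 under poly-A scaling and -0.81 under hybridisation scaling. It came to -0.87 without peroxide replicate 1 and -0.37 without peroxide replicate 2. The negative calls numbered 5 with an offset of 50 and 4 with no filter. The 40th percentile filter kept 3 members, with 0 called by limma. Peroxide lowered 25 members with carnitine and 24 without, with median effects of -2.41 and -1.80, while 39.1% and 39.5% of all tested genes fell in these comparisons. In mixed cultures, fewer cells in a phase and less transcript per cell cannot be told apart. Between 1 and 17 members were called when 1 array was left out.

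HOF1 (YMR032W), for a bud-neck protein of cytokinesis, had the largest negative value of all named genes. It read 21.5 and 31.5 in carnitine with peroxide, 197 and 311 in peroxide, 1227 and 1198 in carnitine and 994 and 1114 in control. The arrays of carnitine with peroxide lay far below the peroxide arrays, which in turn lay below both unexposed groups. Its interaction was -3.46 ± 0.35 (adjusted p = 0.00891), with a peroxide effect of -5.54 ± 0.25 with carnitine and -2.09 ± 0.25 without.

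SWI5, for an activator of genes at the exit from mitosis, read 43.9 and 52.2 in carnitine with peroxide, 150.2 and 309 in peroxide, 966 and 1063 in carnitine and 897 and 903 in control, with an interaction of -2.34 ± 0.42 (adjusted p = 0.0236). CHS2, for the chitin synthase of the septum, read 95.7 and 109.8 in carnitine with peroxide, 278 and 518 in peroxide, 1869.7 and 2244 in carnitine and 2045 and 2282 in control, with -1.81 ± 0.38 (adjusted p = 0.0298). In both genes the peroxide replicates were well apart, replicate 2 being the higher, yet both lay above the arrays of carnitine with peroxide. BUD4, for axial bud-site choice, had -1.73 ± 0.29, ALK1, a kinase gene, -1.22 ± 0.31, CDC20, for an activator of the anaphase-promoting complex, -0.96 ± 0.23, DBF2, for a mitotic exit kinase, -0.96 ± 0.21, the cyclin gene CLB4 -0.88 ± 0.23, FKH2, for a forkhead activator of this set, -0.78 ± 0.18, and IQG1, for an actomyosin ring protein, -0.69 ± 0.18.

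CLB2, for the main mitotic cyclin, read 36.2 and 23.4 in carnitine with peroxide, 31.4 and 103 in peroxide, 2448 and 2442 in carnitine and 2238 and 2183 in control. Its peroxide arrays overlapped with those of carnitine with peroxide, and the interaction of -1.11 ± 0.68 did not pass (adjusted p = 0.301). SFG1, for a transcription factor of pseudohyphal growth, belongs to no list but had the shape of HOF1, with signals of 77.5 and 54.8 in carnitine with peroxide, 296 and 692 in peroxide, 4383 and 4428 in carnitine and 4117 and 3826 in control and an interaction of -2.95 ± 0.502 (adjusted p = 0.0215). AIM20, at -1.91 ± 0.46, and YMR030W-A, at -1.86 ± 0.39, also fell more deeply with peroxide when carnitine was present.

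G1/S genes were mixed, with 5 of 41 negative (12.2%, against 5.11% of all tested genes) and 3 positive (7.32%, near the 7.72% of all tested genes). Their median was -0.12, which turned to 0.54 under poly-A scaling. PCL2, for a G1 cyclin, read 357 and 422 in carnitine with peroxide, 1039.5 and 1657 in peroxide, 579 and 675 in carnitine and 465 and 527 in control. With carnitine it fell by 0.69 ± 0.22 under peroxide, whereas without carnitine it rose by 1.41 ± 0.22, and the interaction was -2.09 ± 0.31 (adjusted p = 0.0196). SVS1, TOS4, GIC2 and PCL9 were also negative, at -1.49 ± 0.34, -1.29 ± 0.29, -1.04 ± 0.22 and -0.67 ± 0.12. Of the 3 positive ones, RNR1, for ribonucleotide reductase, had 0.70 ± 0.17, and RFA2 and RFA3, for the single-strand DNA binding complex, 0.47 ± 0.092 and 0.58 ± 0.11. SRL4, linked to deoxynucleotide supply and in no list, was negative at -2.47 ± 0.39, with signals of 7.12 and 5.98 in carnitine with peroxide, 34.98 and 62.6 in peroxide, 9.17 and 6.396 in carnitine and 9.46 and 10.3 in control.

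DNA damage genes had 5 of 24 positive and 0 negative, with a median of 0.22. MAG1, for a DNA glycosylase, had 1.004 ± 0.22, RAD52, for recombination repair, 0.62 ± 0.13, DDI1 0.65 ± 0.17 and RAD23, for nucleotide excision repair, 0.36 ± 0.086, besides RNR1. RNR3, a damage marker, had 0.64 ± 0.32 and did not pass (adjusted p = 0.211). Daughter-cell separation genes had 4 of 19 negative and 0 positive, with a median of -0.21 that turned to 0.45 under poly-A scaling, among them ASH1, for a daughter-cell repressor, at -0.65 ± 0.15 and DSE3 at -0.45 ± 0.086, which turned to 0.01 and 0.21 under poly-A scaling. The origin licensing genes had 0 called of 14 by limma, with 2 at an unadjusted p below 0.05.

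Purine and one-carbon genes had 9 of 19 members negative and 1 positive, with a median of -0.55 that turned to 0.11 under poly-A scaling. GCV2, for the glycine decarboxylase subunit, read 2294 and 2354 in carnitine with peroxide, 5157 and 7921 in peroxide, 17006 and 17902 in carnitine and 16856 and 16668 in control. Carnitine left the unexposed cultures close together, and during peroxide its arrays lay below both peroxide arrays. The interaction was -1.52 ± 0.24 (adjusted p = 0.0197).

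GCV1, for another subunit of the same complex, had -1.06 ± 0.20, whereas GCV3 had -0.075 and did not pass. SHM2, for cytosolic serine hydroxymethyltransferase, had -1.25 ± 0.29, and ADE17, for the last steps of purine synthesis, read 6815 and 7664 in carnitine with peroxide, 14344 and 20475 in peroxide, 40209.8 and 39479 in carnitine and 39353 and 40889.9 in control and had -1.24 ± 0.21 (adjusted p = 0.021). The purine genes ADE6, ADE2, ADE12, ADE1 and ADE13 lay between -0.71 and -0.58. IMD4, for a step toward guanine nucleotides, was the positive member, at 0.44 ± 0.11. Leaving out 1 array gave between 0 and 12 negative members.

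Arginine genes had 4 of 8 tested members negative and 0 positive, with a median of -0.63 that turned to 0.04 under poly-A scaling. ARG1, for argininosuccinate synthase, read 20791 and 23105 in carnitine with peroxide, 36536 and 41674 in peroxide, 44286 and 46892 in carnitine and 45291 and 47872 in control, with an interaction of -0.80 ± 0.11 (adjusted p = 0.0186). The unexposed groups overlapped in signal while the peroxide groups did not. ARG7, for an acetyltransferase of ornithine synthesis, had -0.68 ± 0.13, ORT1, for the mitochondrial ornithine carrier, -0.63 ± 0.12, and ARG4, for argininosuccinate lyase, -0.62 ± 0.091, the last turning to 0.04 under poly-A scaling.

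Sulfate assimilation and methionine genes had 8 of 27 negative and 0 positive, with a median of -0.37 that turned to 0.29 under poly-A scaling. MET16, for the reductase of activated sulfate, read 13305 and 14562 in carnitine with peroxide, 24035 and 22928 in peroxide, 13133 and 13654 in carnitine and 13899 and 12711 in control. Peroxide raised it without carnitine and left it near the unexposed signals with carnitine, for an interaction of -0.76 ± 0.093 (adjusted p = 0.0161). MET8, for sirohaem synthesis, had -1.54 ± 0.26, MET13, for methylenetetrahydrofolate reductase, -0.88 ± 0.19, MET1 -0.75 ± 0.18, MET2 -0.71 ± 0.11 and MET6, for methionine synthase, -0.37 ± 0.087. Lysine genes had 1 of 8 negative, and branched-chain amino acid genes 1 of 12 negative and 2 positive, ILV5 at 0.63 ± 0.14 and BAT2 at 0.37 ± 0.059.

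**Figure D5:**
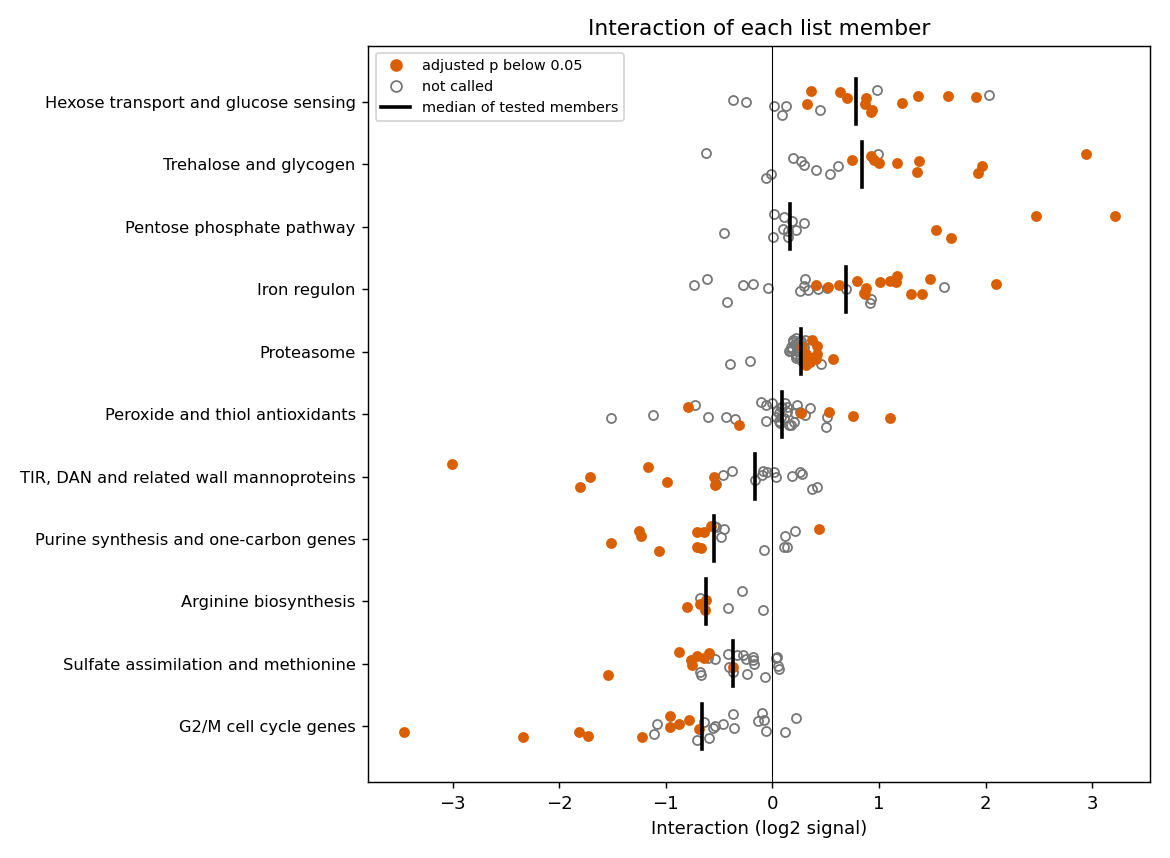
Interaction in log2 signal of every tested member (points, orange where called) of 11 gene lists, with the list median as a black bar. The medians of the hexose transport, trehalose and glycogen, and iron lists lie between 0.69 and 0.84, and that of the pentose phosphate list at 0.16. Those of the G2/M and arginine genes lie at -0.66 and -0.63. Under poly-A scaling the medians of the arginine, purine, sulfate and TIR/DAN lists turn positive.

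Wall mannoprotein genes of the TIR and DAN families, which are known from cold and low oxygen, had 7 of 21 negative and 0 positive, with a median of -0.16 that turned to 0.50 under poly-A scaling. DAN1 read 166 and 321 in carnitine with peroxide, 376 and 708 in peroxide, 3961 and 3525 in carnitine and 851 and 1272 in control. Carnitine had opposite signs on it, -1.16 ± 0.39 during peroxide and 1.84 ± 0.39 in unexposed cells, neither past the threshold (adjusted p = 0.051 and 0.0748), and their difference, -3.01 ± 0.55, passed (adjusted p = 0.0236).

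TIR1 lay on the peroxide side. It read 561 and 1058 in carnitine with peroxide, 2628 and 3172 in peroxide, 3137 and 3127 in carnitine and 3239 and 3472 in control, with an interaction of -1.81 ± 0.36 (adjusted p = 0.0278). TIR2 lay on the other side, as it rose with carnitine in both settings, by 0.496 ± 0.11 during peroxide and by 1.48 ± 0.11 without it, for an interaction of -0.99 ± 0.15 (adjusted p = 0.0197). TIR3 and TIR4 had -1.71 ± 0.45 and -1.17 ± 0.29. ANB1, for the form of translation factor eIF5A made at low oxygen, in no list, read 897 and 1429 in carnitine with peroxide, 2293 and 4022 in peroxide, 8519 and 8494 in carnitine and 6308 and 7846 in control, with -1.70 ± 0.41 (adjusted p = 0.0398). HMS1, for a helix-loop-helix factor of pseudohyphal growth, had -2.29 ± 0.55 (adjusted p = 0.0398), and YAL037C-A had -3.04 ± 0.61, a size that depends on the floor, since its unexposed means lay within the range of fission yeast probe sets.

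A smaller set took its interaction from unexposed cells. The carnitine effect was the larger without peroxide in 57 of the 411 positive and 27 of the 272 negative genes. PHO89, for a sodium-coupled phosphate transporter, read 61.1 and 41.97 in carnitine with peroxide, 53.2 and 56.3 in peroxide, 50.3 and 29.01 in carnitine and 144 and 297 in control. It fell with carnitine in unexposed cells, by 2.44 ± 0.38, and had -0.11 ± 0.38 during peroxide, for an interaction of 2.33 ± 0.54 (adjusted p = 0.0365). Its control replicates were well apart, and its interaction ran from 1.805 to 2.848 when 1 array was left out. PHO89 and VTC3, for polyphosphate synthesis (0.42 ± 0.095), were the 2 positive members of 19 phosphate genes, and PHO84, for the high-affinity transporter, had 0.14 and did not pass. SPS4, induced in sporulation, read 4.38 and 4.15 in carnitine with peroxide, 4.59 and 5.15 in peroxide, 66.1 and 70.9 in carnitine and 27.2 and 27.5 in control, with an interaction of -1.51 ± 0.14 (adjusted p = 0.00891). Its means in carnitine with peroxide and in peroxide, 4.26 and 4.87, lay within the range of fission yeast probe sets, so the size of its value depends on the floor.

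Translation lists had many small values. Cytosolic ribosomal protein genes had 18 of 128 negative and 1 positive, RPS9A at 0.51 ± 0.13, with a median of -0.16 that turned to 0.50 under poly-A scaling. The negative calls of this list numbered 0 under poly-A scaling, which gave 40 positive ones, 2 under hybridisation scaling, 2 with no trend and 46 with the 40th percentile filter. They numbered 38 without peroxide replicate 1 and 0 to 4 without any other array. Ribosome assembly genes had 11 of 102 negative and 0 positive, with a median of -0.07 that turned to 0.59, and 3 of them were negative under hybridisation scaling. Mitochondrial ribosomal protein genes had 5 of 67 positive (7.46%, near the 7.72% of all tested genes) and 0 negative. Their median of 0.23 came to 0.08 under hybridisation and 0.89 under poly-A scaling, and to 0.17 to 0.29 when 1 array was left out. As deposited, 64 of the 67 values were above 0, against 2721 of 5324 over all tested genes. The largest was MRPL39 at 0.67 ± 0.17. RNA polymerase I and III genes had 0 called of 24 by limma, with 2 at an unadjusted p below 0.05, and aminoacyl-tRNA synthetase genes 2 of 19 negative, WRS1 at -0.53 ± 0.071 and GLN4 at -0.36 ± 0.093, which turned to 0.13 and 0.30 under poly-A scaling.

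Transport and turnover lists lay in between. Over all tested genes 7.72% were positive and 5.11% negative. Amino acid and nitrogen permeases had 5 of 25 positive (20%) and 1 negative (4%). Beside PUT4, the general permease gene GAP1 had 0.52 ± 0.081, the peptide transporter gene PTR2 0.74 ± 0.13 and BAP2, for branched-chain amino acids, 0.52 ± 0.13. ALP1 was the fifth, at the floor in 3 groups, and OPT2, for an oligopeptide transporter, was negative at -1.19 ± 0.22. Zinc and metal transport genes had 4 of 17 positive (23.5%) and 0 negative, IZH4 with 1.18 ± 0.30 and SMF2, for a manganese transporter, with 0.495 ± 0.12 among them. Autophagy genes had 4 of 34 positive (11.8%) and 0 negative, with ATG1, for the initiating kinase, at 1.02 ± 0.27. Their median of 0.13 turned to -0.01 under hybridisation scaling. Pheromone response genes had 2 of 26 negative (7.69%), KAR5 at -0.71 ± 0.19 and the α-agglutinin gene SAG1 at -0.61 ± 0.12. The median of the pheromone list was -0.45, which turned to 0.21 under poly-A scaling. The negative calls of this list numbered 11 under hybridisation scaling and 1 under poly-A scaling, which gave 6 positive ones, and 12 without peroxide replicate 1, against 0 to 2 without any other array. Called genes with a group at the floor numbered 6, and beside CRC1, ALP1 and GAC1 they included AZR1, which read 8.34 and 10.6 in carnitine with peroxide, 24.2 and 28.1 in peroxide, 5.34 and 3.89 in carnitine and 3.897 and 3.88 in control, and CRR1, which read 10.2 and 8.41 in carnitine with peroxide, 15.6 and 13.9 in peroxide, 4.396 and 4.07 in carnitine and 3.88 and 4.05 in control.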

How the data were processed

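Total RNA of 8 cultures was labelled with biotin and hybridised to Affymetrix yeast arrays, per the labels. The deposited values are linear intensity, one per array for each probe set. The submitters' processing notes name GCOS with no version; how probes were summarised and scaled is not stated in the labels. Values ran from 3.205 to 79918, and 0 value columns were left out. The platform table, with 12 symbols updated, named 5498 probe sets for 1 S. cerevisiae gene and 1746 for fission yeast; 1 had several genes and 3683 none listed. Where a gene had several probe sets, the brightest by mean log2 signal was kept; 109 tested genes lie on a probe set that may match another gene. A floor of 2.051 on the log2 scale was set at the 95th percentile of mean signal among the fission yeast probe sets. Signals were used as deposited because the medians of tested genes lay within 10% of each other (5.08%).

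A linear model of the log2 values of all 8 arrays was fitted (limma 3.58.1, R 4.3.3, with a mean for each group, eBayes with a trend, 4 residual and 3.443 prior degrees of freedom), and p-values were adjusted by Benjamini-Hochberg over the 5324 tested genes of each comparison, with a threshold of 0.05. The p-values rest on the spread between 2 replicate cultures, estimated jointly over the 4 groups, and the number of arrays limits the precision. The comparisons were the interaction and the 4 single effects in it.

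Named genes were the 15 largest called values on each side, up to 3 members of each of 39 lists by absolute moderated t, and a set of carnitine and antioxidant genes. Other called list members were named after their values were seen. The gene set, lists and rule were chosen with earlier results of these data known. Alternatives were quantile normalization, median centring, both spike scalings, dropping the filter or setting it at the 40th percentile, no trend, an offset of 50, a replicate block, a 2-fold minimum, use of every probe set, and leave-one-out fits. The plots were made with matplotlib 3.10.9 (Python 3.11.15).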

Additional observations from a re-analysis of the deposited data

Results flagged for a closer look

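The interaction itself is a test of a difference between the carnitine effects with and without peroxide, and it called 683 of 5324 genes. In 8 of them carnitine passed the threshold in both settings with opposite signs: each rose during peroxide and fell in unexposed cells. Their interactions were 2.37 for ATO2, 1.72 for SHC1, linked to chitin synthesis in sporulation, 1.67 for SOL4, 1.54 for PGM2, 1.14 for PNS1, of the choline-transporter-like family, 1.04 for YHR140W, 0.87 for FET3 and 0.78 for YLR177W. No called gene had the reverse pattern, a called fall during peroxide and a called rise without it.

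In all, 209 probe sets with no gene listed had a mean above that of every fission yeast probe set. Of these, 28 had an interaction by limma, 16 positive and 12 negative, and 66 had an unadjusted p below 0.05. These shares were near those of the tested genes, of which 12.8% were called, 7.72% positive and 5.11% negative. The largest positive value was 2.12 ± 0.50, and the next was 1.86 ± 0.31, from a probe set reading 306 and 310 in carnitine with peroxide, 114 and 114 in peroxide, 95.8 and 65.8 in carnitine and 126 and 89.9 in control.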

How the results depend on the processing

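Leaving out 1 array, with the lone array assumed to vary like the other groups, gave 17 to 969 interaction genes, 10 to 553 positive, 3 to 416 negative, 786 to 1763 for carnitine during peroxide, 17 to 54 for carnitine alone, 3597 to 3986 for peroxide with carnitine and 3639 to 3938 for peroxide alone. Poly-A scaling gave 3154 interaction genes (3119 and 35) and 4600 for carnitine during peroxide, hybridisation scaling 432 (140 positive), 982 for carnitine during peroxide and 143 for carnitine alone. No filter gave 449 (173 negative) and 41 for carnitine alone. The 40th percentile filter, which tests fewer genes, gave 2640 and 2585 for peroxide with and without carnitine. A 2-fold minimum gave 144 (88 and 56), 197 and 22 for carnitine during peroxide and alone, and 1359 and 1303 for peroxide with and without carnitine. The cause of the other moves was not tested. Replicates differed by up to 0.37 (log2) in poly-A and 0.27 in hybridisation spike means. Quantile normalization, median centring, no trend, an offset of 50 and all probe sets gave 683, 729, 469, 552 and 688 interaction genes. The replicate block gave 863, and replicate numbers pair no samples by the labels: deviations of same-numbered arrays correlated between -0.11 and 0.13.

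Of 115 called named genes, between 7 and 111 stayed called when 1 array was left out, with 0 reversals. Poly-A scaling turned the sign of 19 of them, and of CIT2 (0.64) and HNM1 (0.65), which were called only there: GSH1 0.35, ATR1 0.07, FES1 0.04, PYC2 0.04, DSE3 0.21, ASH1 0.01, ARG4 0.04, LYS14 0.23, ILV3 0.22, MET5 0.02, CIS3 0.12, SAG1 0.05, RPS22B 0.27, RPL33B 0.27, UTP11 0.12, KRR1 0.20, RPF1 0.32, WRS1 0.13 and GLN4 0.30. Of the 45 named genes not called, others changed sign without being called in either fit, 16 under poly-A scaling, 11 under hybridisation scaling and 1 to 3 in 6 of the leave-one-out fits. Hybridisation scaling turned the sign of 0 called named genes.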

Other observations

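The 39 gene lists held 1090 of the 5324 tested genes. Of the called genes, 111 of the 411 positive and 98 of the 272 negative belonged to at least 1 list. Most called genes lie outside the lists, as do most tested genes. With genes cut into 4 bins of equal size by mean log2 signal, from the lowest to the highest bin, 11.5%, 9.02%, 13% and 17.8% of 1331 genes each had an interaction.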
